A study of Rattus norvegicus with 16 samples.

Results

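Metallothioneins and heat shock proteins were read by 15 of the 45598 probes of a rat whole-genome array, and all 15 passed the filter on dim probes. They were chosen by name: probes whose gene name in the scanner files was Mt1, Mt1a, Mt1m, Mt2A, Hspb1, Hspb8, Hsph1, Dnajb1, Hspa8, Hspd1 or Hspe1. Probes were found for 9 of these 11 names, and none carried the name Mt1a or Mt1m. The 9 genes were among 16007 genes tested. Hspa8 had 4 probes, Hspd1 had 3, Hspe1 had 2 and the other genes had 1 each.

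Cortex RNA from the kidneys of male rats was hybridised to 16 arrays, each with the Cy3 dye alone. BRCA1+/- rats of the Jcl:SD background (heterozygous below; the sources used here do not describe the allele) gave 2 untreated control arrays, 3 arrays after 1 week of Fe-NTA and 3 after 3 weeks. Wild-type Jcl:SD rats gave the same numbers. The agent given, Fe-NTA (ferric nitrilotriacetate), delivers chelated iron that injures the proximal tubule through oxidative damage. Treated rats were injected into the peritoneum from 4 weeks of age, with 5 mg iron/kg for the first 2 doses, 7 mg iron/kg for the last 3 doses of week 1 and 10 mg iron/kg 5 times a week in the 2 weeks after that. Tissue was taken 48 h after the last dose. The labels give no age, vehicle or sampling time for the controls, so age and treatment cannot be told apart, and the 3-week rats were older and more heavily dosed than the 1-week rats. Whether each array stands for its own animal is not stated, so p-values measure the spread between these samples, which may be technical.

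Metallothioneins are small cysteine-rich proteins that bind zinc and copper, and they also react with oxidants. Their genes are switched on by the zinc-sensing factor MTF-1 through short metal response elements close to the start site. Heat shock proteins are chaperones that keep other proteins folded. Heat shock factor 1 switches many of them on through inverted repeats of the unit GAA. Kidney tubule cells carry both families and are known to raise them after toxic and ischaemic injury.

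The upstream sequences of 5 members are shown because their letters differ in the elements that these factors are known to use. Each is the 250 bases before the RefSeq start on the GRCr8 assembly, read 5′ to 3′ on the strand of the gene. Capitals mark matches to the metal response cores TGCACNC and TGCGCNC, the heat shock pairs GAANNTTC and TTCNNGAA, and the antioxidant response element TGACNNNGC, searched on both strands. Mt1 lies on the minus strand at chr19:10832976-10833225, Mt2A on the minus strand at chr19:10838709-10838958, Hspb1 on the minus strand at chr12:26432302-26432551, Hsph1 on the plus strand at chr12:10427118-10427367 and Hspa8 on the plus strand at chr8:50080264-50080513.
Mt1: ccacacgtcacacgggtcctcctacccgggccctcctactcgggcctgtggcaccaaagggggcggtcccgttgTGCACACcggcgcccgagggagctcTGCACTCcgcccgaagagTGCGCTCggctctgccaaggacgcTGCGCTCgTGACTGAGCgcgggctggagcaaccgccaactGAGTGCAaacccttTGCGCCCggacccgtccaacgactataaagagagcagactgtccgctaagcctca
Mt2A: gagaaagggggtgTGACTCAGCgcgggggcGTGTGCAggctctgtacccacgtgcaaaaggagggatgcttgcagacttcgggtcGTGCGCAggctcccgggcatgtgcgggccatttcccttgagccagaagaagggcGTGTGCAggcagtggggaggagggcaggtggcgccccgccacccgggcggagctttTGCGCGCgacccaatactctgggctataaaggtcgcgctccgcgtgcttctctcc
Hspb1: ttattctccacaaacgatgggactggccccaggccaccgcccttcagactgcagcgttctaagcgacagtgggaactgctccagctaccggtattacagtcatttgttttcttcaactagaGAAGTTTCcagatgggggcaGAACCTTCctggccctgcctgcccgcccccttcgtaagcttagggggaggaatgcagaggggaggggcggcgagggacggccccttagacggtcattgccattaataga
Hsph1: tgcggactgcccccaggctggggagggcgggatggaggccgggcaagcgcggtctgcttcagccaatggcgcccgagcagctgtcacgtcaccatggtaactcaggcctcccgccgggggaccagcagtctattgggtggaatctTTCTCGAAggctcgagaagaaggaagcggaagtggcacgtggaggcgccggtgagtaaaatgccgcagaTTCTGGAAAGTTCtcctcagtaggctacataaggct
Hspa8: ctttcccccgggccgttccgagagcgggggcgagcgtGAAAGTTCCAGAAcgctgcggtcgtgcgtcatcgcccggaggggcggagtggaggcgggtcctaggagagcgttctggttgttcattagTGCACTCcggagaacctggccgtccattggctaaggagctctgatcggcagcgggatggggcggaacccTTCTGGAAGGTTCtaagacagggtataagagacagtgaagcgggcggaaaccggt

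The Mt1 window held 6 metal response cores and the Mt2A window 4, where 20.6% of all 33469 RefSeq promoter windows of the same length held at least 1 and 0.266% held 4 or more. Each of these 2 windows also held 1 antioxidant element, a match found in 10.1% of all windows. Both are rich in G and C, and among windows within 5 points of their G+C percentage a metal core was found in 37.1% and 36.4%. The windows of the 7 heat shock genes each held 1 to 4 heat shock pairs, against 13.5% of all windows with at least 1. Where 2 neighbouring pairs share their middle unit they form a run of 3 alternating units, which 0.663% of all windows held. Hspa8, Hspd1 and Hspe1 each held 2 such runs and Hsph1 held 1. The windows of Hspb1, Hspb8 and Dnajb1 held none of them. Hspd1 and Hspe1 are neighbours on chromosome 9 that are read in opposite directions, so their windows overlap and share their matches. These are matches of letters, and no binding was measured. The starts used for Hspb8 and Hspd1 are not the outermost of their genes, so those windows are not printed.

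**Figure D1:**
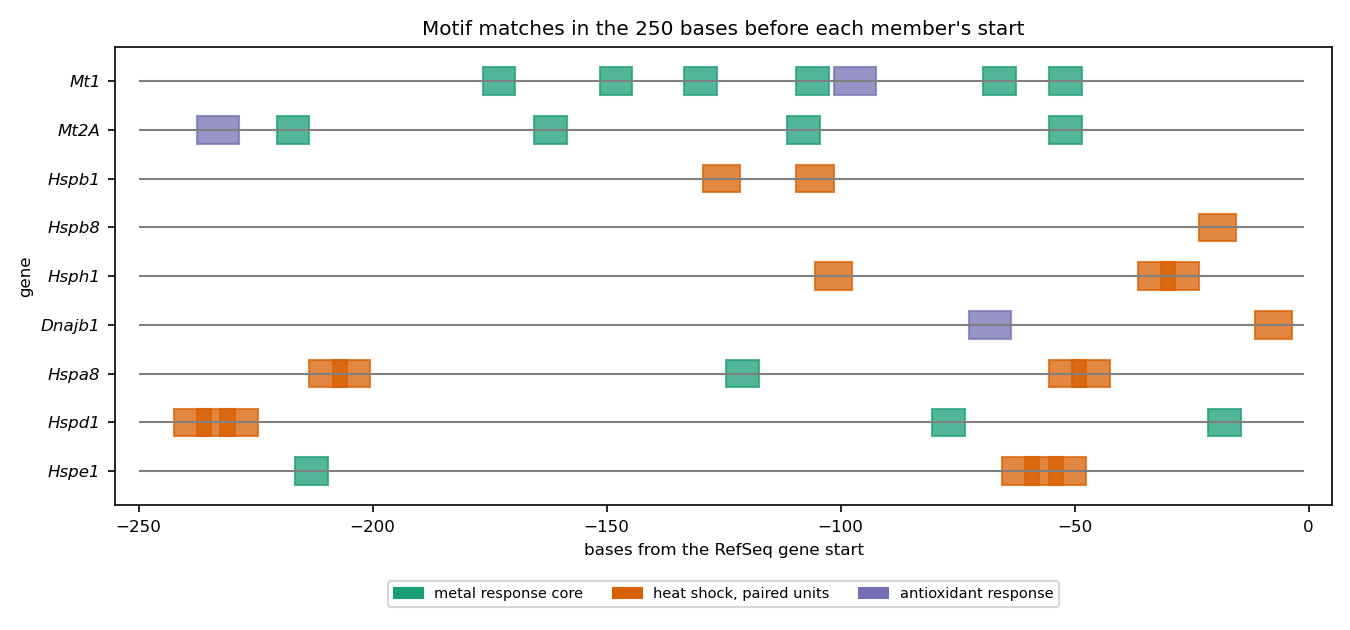
Motif matches in the 250 bases before the RefSeq start of each member (x axis, bases from the start; y axis, gene). Green boxes are metal response cores, orange boxes heat shock pairs and purple boxes antioxidant elements, and overlapping orange boxes form longer runs. Mt1 shows 6 green boxes and Mt2A 4, and overlapping orange boxes appear in Hsph1, Hspa8, Hspd1 and Hspe1.

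Values are on a log2 scale on which 0 is the 75th percentile of the array's own probes. The level of a probe cannot be set against that of another probe. The share of probes well above background ran from 32.7% to 60.4% over the 16 arrays, and no spot was saturated. Within a group, pairs of arrays had correlations over genes of 0.964 to 0.981, apart from the wild-type 1-week replicate 3, which reached 0.905 and 0.908 with the others of its group. In the comparison of 1 week with control, 7.48% of genes passed an adjusted p under 0.05 in heterozygous cortex (4.28% higher, 3.20% lower) and 27.1% in wild-type cortex (12.8% higher, 14.3% lower). In the comparison of 3 weeks with control, 15.9% passed in heterozygous cortex (9.35% higher, 6.52% lower) and 14.2% in wild-type cortex (8.72% higher, 5.52% lower). Comparisons within a genotype share their control arrays. For 44.9% of genes the 1-week arrays did not overlap the controls, in either direction, in each genotype. At 3 weeks this held for 61% of genes in heterozygous and 57.1% in wild-type cortex, so such a separation alone does not mark a gene.

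Of the 9 members, 1 was called in heterozygous cortex after 1 week, 2 after 3 weeks, 2 in wild-type cortex after 1 week and 3 after 3 weeks. These were Hspb1, higher in all 4 comparisons, Hspb8, higher in both wild-type comparisons but dim in controls, and Mt1, lower at 3 weeks in both genotypes. The median log2 change over the 9 was 0.09 at 1 week and -0.21 at 3 weeks in heterozygous cortex, and -0.19 and -0.76 in wild-type cortex, while the median over all genes lay between -0.03 and 0.01. So few members move in steps of 1 gene, and these counts are not set apart from the percentages over all genes.

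Mt1, a metallothionein made in most tissues, read 9.04 and 8.23 in heterozygous controls, 8.68, 7.40 and 7.80 after 1 week, and 7.47, 7.07 and 7.35 after 3 weeks. In wild-type cortex it read 8.83 and 9.07 in controls, 8.47, 8.29 and 7.52 after 1 week, and 7.34, 6.47 and 6.66 after 3 weeks. Every 3-week array lay below every control array of its genotype. Of all genes, 61% in heterozygous and 57.1% in wild-type cortex were separated in this way in either direction. The 1-week arrays overlapped the controls in heterozygous cortex and all lay below them in wild-type cortex, replicate 3 the furthest. Its signal fell by 1.34 ± 0.40 on the log2 scale (SE) in heterozygous cortex after 3 weeks, 2.52-fold, with an interval of -2.20 to -0.47 and adjusted p = 0.037. In wild-type rats it fell by 2.13 ± 0.40, 4.36-fold, with an interval of -2.99 to -1.26 and adjusted p = 0.0033. The 1-week changes of -0.68 ± 0.40 in heterozygous and -0.86 ± 0.40 in wild-type cortex did not pass (adjusted p = 0.35 and 0.13).

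Between 3 weeks and 1 week, Mt1 fell by 1.27 ± 0.36 in wild-type cortex (adjusted p = 0.043), where 8.32% of genes passed (5.54% higher, 2.78% lower). No other member was called there. The change between those times in heterozygous cortex was -0.66 ± 0.36 (adjusted p = 0.47). Ordered by group mean, Mt1 was 8.95 in wild-type controls, 8.64 in heterozygous controls, 8.09 in wild-type cortex after 1 week, 7.96 in heterozygous cortex after 1 week, 7.30 in heterozygous cortex after 3 weeks and 6.82 in wild-type cortex after 3 weeks. Each neighbouring pair in this order had overlapping arrays. The 10 repeated spots of the Mt1 probe had an SD between 0.041 and 0.089 within an array, less than the spread between arrays of most groups.

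The heterozygous call at 3 weeks was lost without any 1 of the 5 arrays compared, with changes from -0.93 without heterozygous control replicate 1 to -1.74 without control replicate 2. In wild-type cortex the 3-week call held without each array in turn. With normexp background correction it was -1.43 (adjusted p = 0.13), and within slide 1 and slide 2 it was -2.17 on each (adjusted p = 0.14 and 0.10). The call between 3 weeks and 1 week was lost without wild-type 1-week replicate 1 (-1.08) or 2 (-1.17) and without 3-week replicate 2 (-1.09) or 3 (-1.18).

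Mt2A, its neighbour in the metallothionein cluster on chromosome 19, passed in no comparison. It read 9.07 and 8.88 in heterozygous controls, 9.72, 8.34 and 8.87 after 1 week, and 8.74, 8.53 and 8.77 after 3 weeks. Wild-type arrays read 9.19 and 9.30 in controls, 9.42, 9.39 and 8.37 after 1 week, and 8.88, 7.67 and 7.67 after 3 weeks. Arrays of the 3-week groups lay below the controls of their genotype, by a small margin in heterozygous cortex. The changes at 3 weeks were -0.30 ± 0.44 in heterozygous cortex, with an interval of -1.23 to 0.64, and -1.17 ± 0.44 in wild-type cortex, with an interval of -2.10 to -0.24 (adjusted p = 0.65 and 0.087). At 1 week they were 0.00 ± 0.44 and -0.19 ± 0.44 (adjusted p = 1 and 0.79). Without wild-type 3-week replicate 1, the array with the highest Mt2A of its group, the wild-type change at 3 weeks was -1.58 (adjusted p = 0.031).

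Both metallothioneins were low in the same arrays, so their difference within each array is also described. The pair was picked after its values were seen, so no test is given. The difference of 2 probes has no meaning as a level, and only its shift between groups is read. Mt1 minus Mt2A lay between -1.54 and -0.85 in the 12 Fe-NTA arrays and between -0.65 and -0.03 in the 4 control arrays, without overlap. The means were -1.15 ± 0.23 (SD, n = 12) after Fe-NTA and -0.32 ± 0.26 (SD, n = 4) in controls, a shift of -0.83.

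The shift in Mt1 minus Mt2A was -0.86 in heterozygous cortex and -0.81 in wild-type cortex, and -1.04 on slide 1 and -0.63 on slide 2. It was -0.84 with normexp background correction and -0.90 with quantile normalization. The 1-week arrays, in which neither gene passed alone, all lay below the controls. In heterozygous cortex they all lay above the 3-week arrays, nearer to the controls, and in wild-type cortex they overlapped the 3-week arrays. In heterozygous cortex the difference was -0.03 and -0.65 in controls, -1.04, -0.94 and -1.07 after 1 week, and -1.27, -1.46 and -1.42 after 3 weeks. In wild-type cortex it was -0.37 and -0.22 in controls, -0.94, -1.10 and -0.85 after 1 week, and -1.54, -1.20 and -1.01 after 3 weeks. The sequences of both probes share 25 of 45 bases at their best ungapped alignment.

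**Figure D2:**
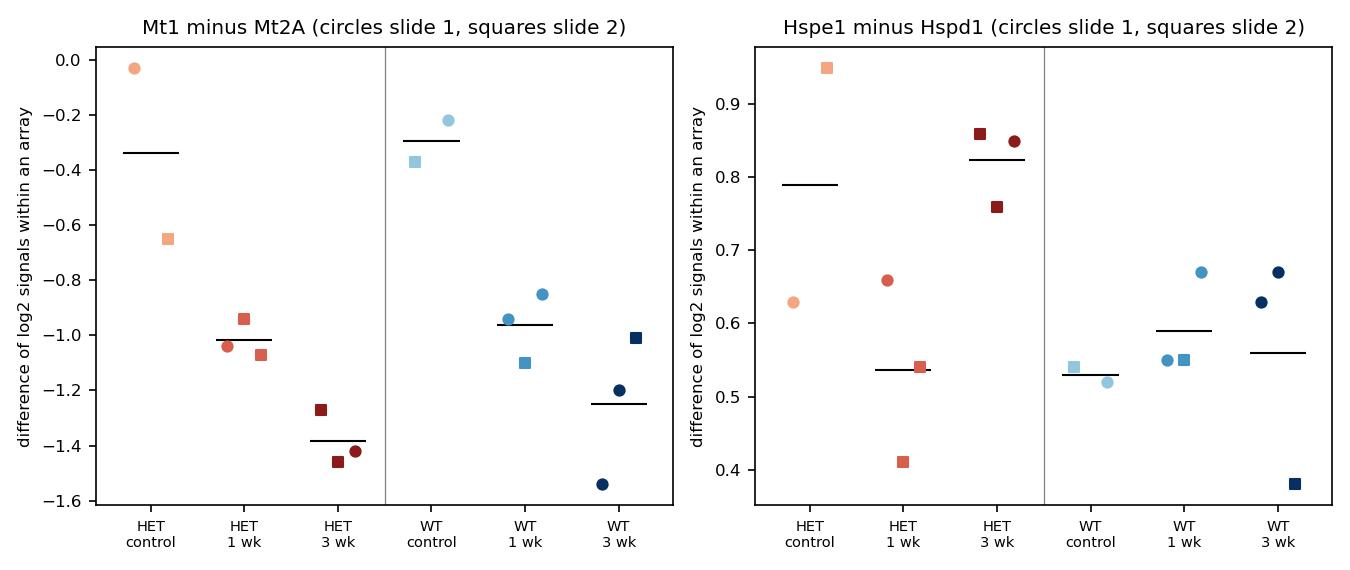
Difference of log2 signals within each array (y axis) by group (x axis; HET, heterozygous; WT, wild type), for Mt1 minus Mt2A on the left and Hspe1 minus Hspd1 on the right. Points are arrays, circles of slide 1 and squares of slide 2, and lines are group means. All 12 Fe-NTA arrays lie below all 4 control arrays on the left, between -1.54 and -0.85, and the groups overlap on the right.

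Markers of the proximal tubule, the main site of Fe-NTA injury, were lower in the same arrays. The summed signal of the 10 tested of 10 listed genes, as multiples of the 75th percentile of the array, was 463 to 915 after 1 week and 582 to 1340 after 3 weeks in heterozygous cortex, against 2730 to 3730 in controls. The wild-type sums were 77 to 300 after 1 week and 700 to 1370 after 3 weeks, against 3490 to 3540 in controls. Each of these 10 genes was above background on some arrays. Summed injury markers (6 of 6, among them Havcr1 and Lcn2) were 254 to 605 and 779 to 826 after 1 and 3 weeks in heterozygous cortex, against 14.5 to 18.5 in controls. They were 484 to 807 and 339 to 717 in wild-type cortex, against 13.7 to 16.4 in controls. Macrophage markers (6 of 6) summed to 19.3 to 60.2 over the 6 heterozygous Fe-NTA arrays and 19.6 to 51.5 over the 6 wild-type ones, against 7.71 to 9.06 and 7.61 to 9.61 in their controls. Fibroblast markers (4 of 5, with Lum below background on every array) summed to 26.4 to 52.7 after 1 week and 41.5 to 72.5 after 3 weeks in heterozygous cortex, against 12 to 14.8 in controls, and to 29.4 to 62.3 and 27.7 to 66.8 in wild-type cortex, against 9.45 to 9.81. Erythroid markers (6 of 6) summed to 122 to 155 and 376 to 599 in heterozygous cortex, against 1910 to 2640 in controls. Their wild-type sums were 64.5 to 248 and 129 to 333, against 317 to 2170 in controls. Podocyte markers (5 of 5) were also lower, at 17.1 to 31.2 and 16.5 to 26.7 in heterozygous cortex, against 44.3 to 46.3. In wild-type cortex they were 17.3 to 27.4 and 20.9 to 26.7, against 28.3 to 36.2. Endothelial markers (5 of 5) were 18.6 to 35.1 and 19.1 to 25.3 in heterozygous cortex, against 37.3 to 41.3. Wild-type endothelial sums were 20.3 to 22.3 and 24.7 to 30.1, against 38.3 to 46.6. The part of these cells in the changes of the members was not tested, and in bulk cortex fewer cells of a type and less RNA per cell cannot be told apart.

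Hspb1 (HSP27), a small heat shock protein that binds unfolding proteins and stabilises actin filaments, rose in all 4 comparisons with controls. It read 0.48 and 0.83 in heterozygous controls, 1.69, 1.81 and 2.10 after 1 week, and 1.33, 1.66 and 1.43 after 3 weeks. Wild-type arrays read 0.87 and 0.82 in controls, 2.25, 2.11 and 2.40 after 1 week, and 1.71, 1.79 and 1.54 after 3 weeks. All 12 Fe-NTA arrays lay above all 4 controls, and the 1-week arrays of each genotype lay above its 3-week arrays.

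In heterozygous cortex Hspb1 rose by 1.21 ± 0.23 after 1 week, 2.32-fold, with adjusted p = 0.006, and by 0.82 ± 0.23 after 3 weeks, 1.76-fold, with adjusted p = 0.028. The wild-type rise was 1.41 ± 0.23 after 1 week, 2.65-fold, with adjusted p = 0.00045, and 0.83 ± 0.23 after 3 weeks, 1.78-fold, with adjusted p = 0.027. The step between 3 weeks and 1 week was -0.39 ± 0.21 in heterozygous and -0.58 ± 0.21 in wild-type cortex and passed in neither (adjusted p = 0.45 and 0.10). The group means ran in the order wild type after 1 week (2.25), heterozygous after 1 week (1.87), wild type after 3 weeks (1.68), heterozygous after 3 weeks (1.47), wild-type controls (0.85) and heterozygous controls (0.65). Arrays of neighbours in this order overlapped except between both 1-week groups and between heterozygous cortex after 3 weeks and wild-type controls.

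The wild-type 1-week call for Hspb1 held without each array in turn and with normexp correction or quantile normalization. The heterozygous 1-week call was lost without heterozygous control replicate 1 (1.04, adjusted p = 0.097). The heterozygous 3-week call was lost when either control (0.65 and 0.99) or 3-week replicate 2 or 3 (0.72 and 0.84) was left out. The wild-type 3-week call was lost when either control (0.86 and 0.81) or 3-week replicate 1 or 2 (0.82 and 0.78) was left out. Within slide 1 the wild-type changes were 1.51 and 0.93 after 1 and 3 weeks and within slide 2 they were 1.24 and 0.67, and the heterozygous changes were 1.21 and 0.94 on slide 1 and 1.13 and 0.67 on slide 2. No within-slide change passed. Quantile normalization left the heterozygous 3-week change at 0.75 (adjusted p = 0.051). With no filter on dim probes, all Hspb1 calls but the wild-type 1-week one were lost (adjusted p from 0.057 to 0.16).

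Hspb8 (HSP22), the small heat shock protein that works with Bag3 in clearing misfolded proteins, was dim. It was not well above background in 1 of 2 heterozygous controls and in 1 of 2 wild-type controls, and it was above background on the 14 other arrays. It thus passed the filter on dim probes only through the Fe-NTA groups, in which it was the brighter, so its call is no support for the family as a whole. It read -1.79 and -2.34 in heterozygous controls, -0.82, -0.04 and -0.86 after 1 week, and -1.31, -1.39 and -0.77 after 3 weeks. Wild-type arrays read -3.11 and -1.21 in controls, -0.41, -0.10 and 0.31 after 1 week, and -1.03, -0.86 and -0.08 after 3 weeks. All Fe-NTA arrays lay above the controls of their genotype.

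The fitted changes of Hspb8 in wild-type cortex were 2.10 ± 0.48 after 1 week (adjusted p = 0.0045) and 1.5 ± 0.48 after 3 weeks (adjusted p = 0.048), each against a control mean that includes an array not well above background, so no fold is given. In heterozygous cortex the changes were 1.49 ± 0.48 and 0.90 ± 0.48 and did not pass (adjusted p = 0.072 and 0.20). Without wild-type control replicate 1, in which the probe was not well above background, the wild-type changes were 1.14 and 0.55 and neither passed (adjusted p = 0.11 and 0.54). The 3-week call was lost as well without any 1 of the 3 wild-type 3-week arrays, with adjusted p between 0.059 and 0.15, with slide as a block (1.46, adjusted p = 0.06) and under quantile normalization (1.73, adjusted p = 0.052). When values under the detection limit were raised to it, the wild-type changes were 0.99 after 1 week (adjusted p = 0.042) and 0.39 after 3 weeks (adjusted p = 0.50), and normexp correction left 0.28 and 0.10 at 1 and 3 weeks. Within slide 1 the wild-type changes were 1.16 and 0.26, and within slide 2, which holds the dim control, 3.01 and 3.03.

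The probes of Hspb1 and Hspb8 are shown because both genes were called higher and belong to the same protein family, so likeness of the probes matters. They match at 34 of 58 bases without gaps. Per the header, positions are on the rn4 build, chr12:21911494-21911664 for Hspb1 and chr12:41414450-41420599 for Hspb8, and both spans exceed the 60 bases of the probe.
Hspb1 probe: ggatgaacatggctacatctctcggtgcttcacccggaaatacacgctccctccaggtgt
Hspb8 probe: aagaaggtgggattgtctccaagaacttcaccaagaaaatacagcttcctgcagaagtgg

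**Figure D3:**
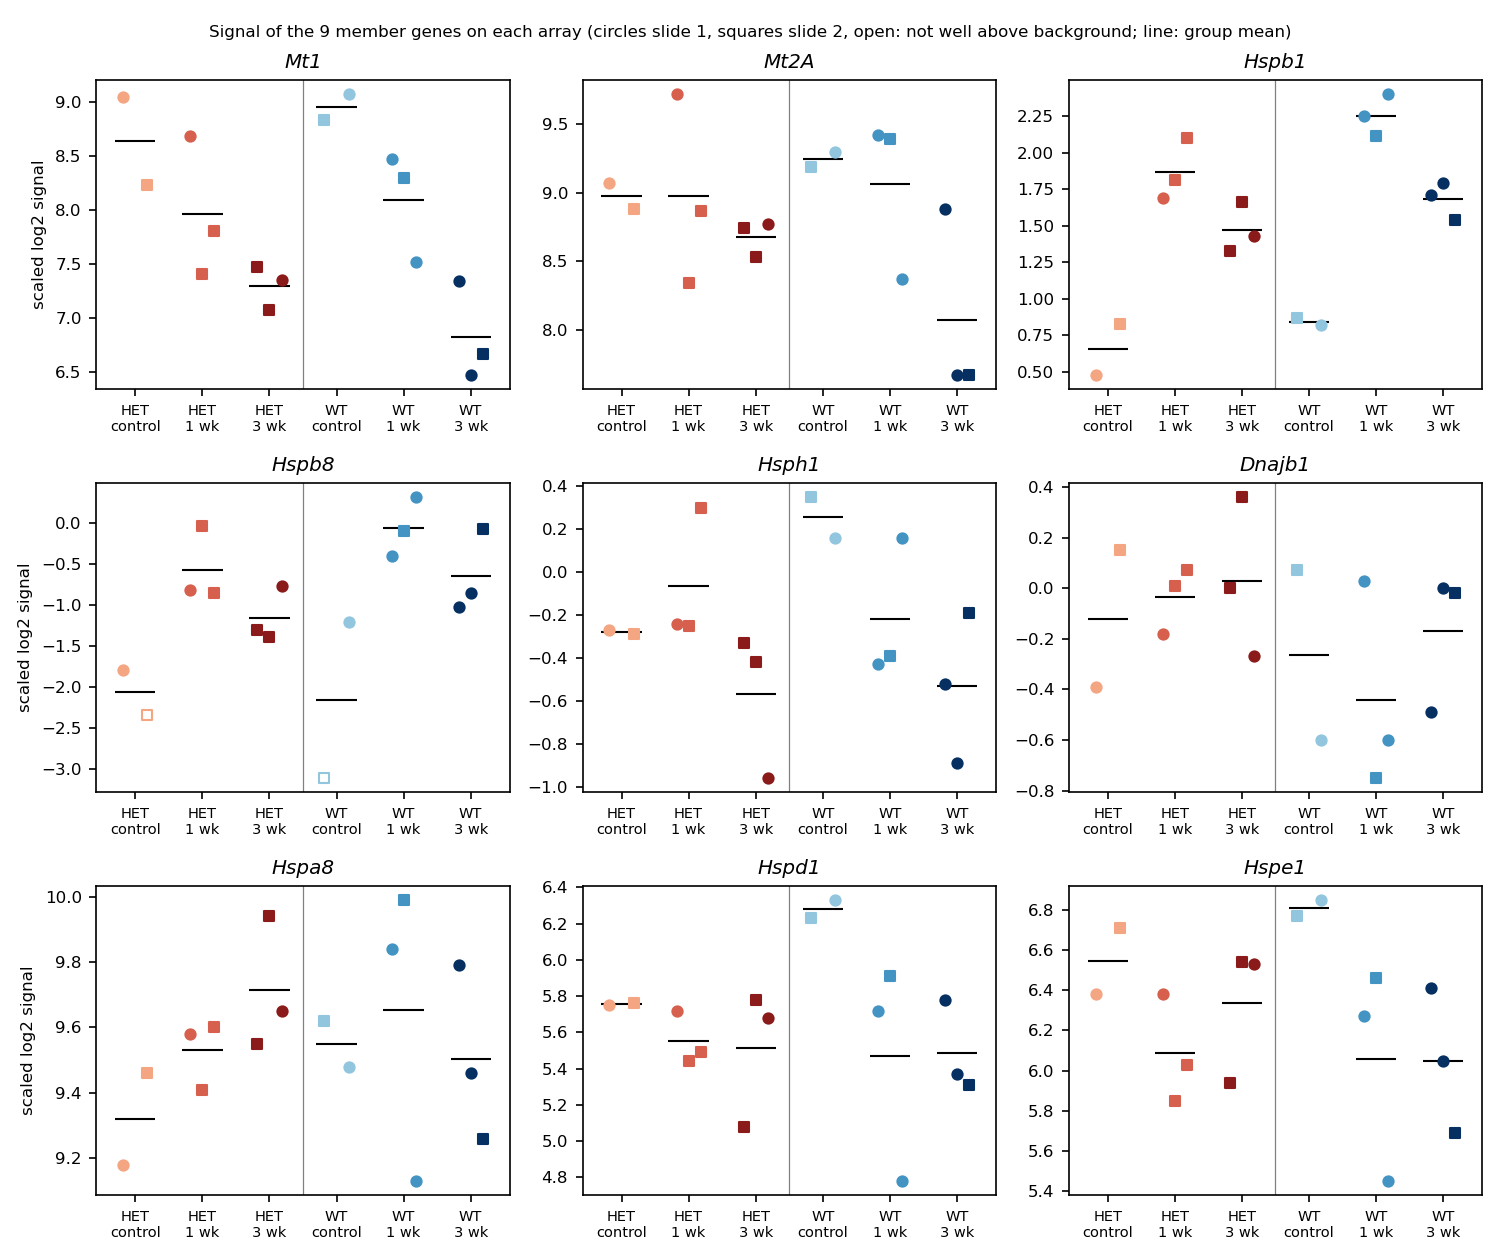
Scaled log2 signal (y axis) of the 9 member genes on each of the 16 arrays, by group (x axis; HET, heterozygous; WT, wild type). Circles are arrays of slide 1, squares arrays of slide 2, open symbols arrays where the probe was not well above background, and lines group means. Hspb1 lies above 1.3 on all 12 Fe-NTA arrays and below 0.9 on all 4 controls, and Mt1 is lowest at 3 weeks.

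The signal of smooth and striated muscle markers, cells that carry small heat shock proteins at high levels, also differed between groups. Over 5 tested of 9 listed genes the sum was 3.91 to 8.36 after 1 week and 5.84 to 8.24 after 3 weeks in heterozygous cortex, against 2.93 to 4.79 in controls. It was 8.24 to 14.2 and 3.29 to 13.0 in wild-type cortex, against 1.77 to 2.78 in controls. Myh4 was below background on every array. Their part in the Hspb1 and Hspb8 results was not tested.

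The 3 inducible or constitutive chaperones of the cytosol among the members passed in no comparison. Hsph1 (HSP110), an exchange factor for HSP70, changed by 0.22 at 1 week and -0.29 at 3 weeks in heterozygous cortex, and by -0.47 and -0.78 in wild-type cortex, with SE 0.30 and adjusted p of 0.094 or more. Its wild-type arrays read 0.35 and 0.16 in controls, -0.43, -0.39 and 0.16 after 1 week, and -0.52, -0.89 and -0.19 after 3 weeks. The 3-week arrays lay below the controls and the 1-week arrays did not all do so. Heterozygous arrays lay between -0.96 and 0.30 over all 3 groups, those after 1 week above and those after 3 weeks below the controls.

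Dnajb1 (HSP40), the J protein that hands clients to HSP70, stayed between -0.75 and 0.36 on all 16 arrays. Its changes ran from -0.18 to 0.15, with SE 0.32 and intervals between -0.85 and 0.83 in all 4 comparisons. Hspa8 (HSC70), the constitutive HSP70, lay between 9.13 and 9.99 on its brightest probe. The changes were 0.21 and 0.40 in heterozygous cortex and 0.10 and -0.05 in wild-type cortex after 1 and 3 weeks, with SE 0.28. The widest bound of their intervals was 0.99, so a rise of the size seen for Hspb1 at 1 week in wild-type cortex lay outside them.

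The 4 Hspa8 probes differed in sign in 2 of the 4 comparisons, and none of them passed. In wild-type cortex after 3 weeks they read -0.05, -0.17, -0.39 and -0.65. Hspa8 and Hspd1 have processed pseudogenes in rodents, and the files do not say whether those add to a probe's signal.

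Hspd1 (HSP60) and Hspe1 (HSP10) form the folding chamber and lid of the mitochondrial chaperonin. Neither passed. In heterozygous cortex Hspd1 changed by -0.20 ± 0.32 and -0.24 ± 0.32 after 1 and 3 weeks and Hspe1 by -0.46 ± 0.33 and -0.21 ± 0.33. In wild-type cortex Hspd1 changed by -0.81 ± 0.32 and -0.79 ± 0.32 (adjusted p = 0.079 and 0.12) and Hspe1 by -0.75 ± 0.33 and -0.76 ± 0.33 (adjusted p = 0.11 and 0.14).

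Wild-type arrays of Hspd1 read 6.23 and 6.33 in controls, 5.72, 5.91 and 4.78 after 1 week, and 5.78, 5.37 and 5.31 after 3 weeks, all Fe-NTA arrays below both controls. Those of Hspe1 read 6.77 and 6.85 in controls, 6.27, 6.46 and 5.45 after 1 week, and 6.41, 6.05 and 5.69 after 3 weeks, again all Fe-NTA arrays below both controls. Of all genes, 44.9% after 1 week and 57.1% after 3 weeks did not overlap the wild-type controls, in either direction. In heterozygous cortex both genes lay below or level with their controls after 1 week and overlapped them after 3 weeks. Hspd1 passed at 1 week without wild-type 1-week replicate 2 (-1.03, adjusted p = 0.035) and was -0.46 without replicate 3 (adjusted p = 0.18), the array that stood apart. The other 2 Hspd1 probes gave 0.04 and -0.19 in wild-type cortex after 1 week, while both Hspe1 probes gave -0.75 and -0.81. In heterozygous cortex those 2 Hspd1 probes gave 0.26 and -0.12 after 1 week and -0.65 each after 3 weeks. None of these changes passed, and the size of the Hspd1 change depends on the probe.

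Hspe1 minus Hspd1 within an array overlapped between Fe-NTA and control arrays. It averaged 0.63 ± 0.15 (SD, n = 12) after Fe-NTA and 0.66 ± 0.20 (SD, n = 4) in controls. Of all pairs of members these 2 had the smallest root mean square difference over the 16 arrays, 0.15 after each was centred on its own mean, and Mt1 and Mt2A stood at 0.42. The SD over the arrays was 0.39 for Hspd1 and 0.40 for Hspe1, against 0.82 for Mt1 and 0.58 for Mt2A. The 2 differences are thus not on a like footing. The closeness of Hspe1 and Hspd1 rests on the brightest probe of each gene. On wild-type 1-week replicate 3 that Hspd1 probe read 4.78, against 6.23 and 6.33 in controls. Another Hspd1 probe read 4.73 there, against 4.21 and 4.22 in controls. Genes outside the members lay as near, with Taf13 at 0.13 from Hspe1 and Megf9 at 0.14 from Hspd1.

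**Figure D4:**
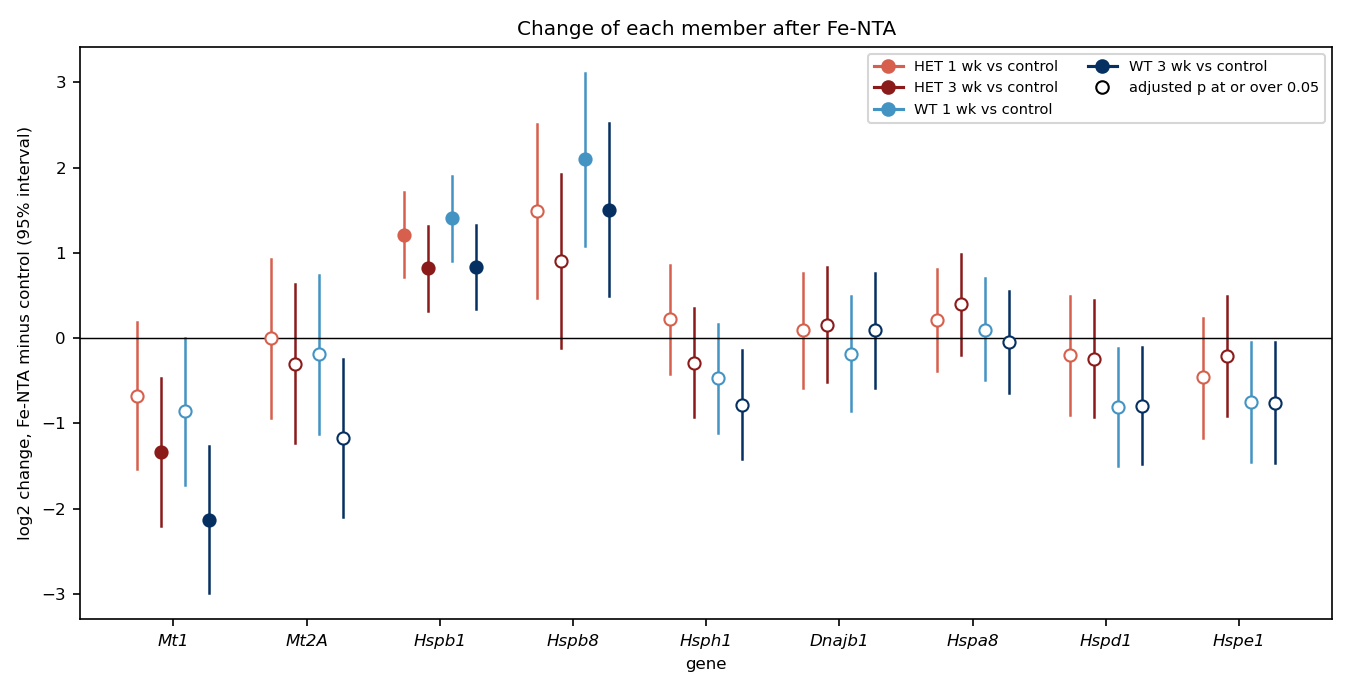
Log2 change after Fe-NTA with its 95% interval (y axis) for each member (x axis), in heterozygous cortex after 1 and 3 weeks (light and dark red) and wild-type cortex after 1 and 3 weeks (light and dark blue). Filled points have an adjusted p under 0.05, and HET and WT mark heterozygous and wild type. Hspb1 is filled in all 4 comparisons, and Mt1 reaches -2.13 in wild-type cortex after 3 weeks.

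No member differed between the genotypes by limma at an adjusted p under 0.05, and none did at an unadjusted p under 0.05. That held for heterozygous against wild-type controls, 1-week cortex and 3-week cortex, where 0%, 0.562% and 0% of all genes passed. It also held for the difference between the genotypes in the change at 1 and at 3 weeks, where 0% passed in each. Between 3 weeks and 1 week in heterozygous cortex, where 0.306% of genes passed, no member was called either, and none had an unadjusted p under 0.05. The genotype differences in change at 3 weeks were 0.79 for Mt1, with an interval of -0.43 to 2.01, 0.88 for Mt2A, with -0.44 to 2.19, and -0.01 for Hspb1, with -0.71 to 0.68. No difference in the size of the Mt1 change was detected, and the interval includes differences up to 2.01.

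Genes whose centred values lay nearest to a member's over the 16 arrays, among 11426 genes with a plain symbol, were named by their root mean square difference. Nearest to Mt1 were Cemip (0.42), Mt2A (0.42) and Me1 (0.45), the malic enzyme of the cytosol, against an SD of Mt1 itself of 0.82. Nearest to Mt2A were Cotl1 (0.30), Twf1 (0.35) and Rpp30 (0.36), with an SD of 0.58. Nearest to Hspb1 were Ppp1r14b (0.16), Pdia6 (0.22), a disulphide isomerase of the endoplasmic reticulum, and Gpat4 (0.22), with an SD of 0.56. Nearest to Hspb8 were Rap2b (0.38), Atf6b (0.40) and Trio (0.44), with an SD of 0.89. Those nearest to Hsph1 were Sohlh1, Pgs1 and Col5a3 (0.19 to 0.23), to Dnajb1 Ccdc66, Tyw1 and Ell2 (0.18 to 0.21) and to Hspa8 Cand1, Rplp1 and Bud23 (0.13 to 0.14). Those nearest to Hspd1 were Megf9, Zc3h15 and Ttc32 (0.14 to 0.15) and to Hspe1 Taf13, Cops7a and Rnaseh2b (0.13 to 0.15). The SDs were 0.37 for Hsph1, 0.32 for Dnajb1, 0.25 for Hspa8, 0.39 for Hspd1 and 0.40 for Hspe1. A small difference says less where the SD of the member is small.

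Other genes of metal handling and protein folding were taken from 7 lists. In metal handling, 28 of 32 listed genes were tested. In heterozygous cortex 1 rose and 1 fell after 1 week, and 3 rose and 2 fell after 3 weeks. In wild-type cortex 2 rose and 9 fell after 1 week, and 2 rose and 3 fell after 3 weeks. The median changes at 1 and 3 weeks were 0.06 and 0.01 in heterozygous and -0.27 and 0.14 in wild-type cortex. Slc39a8 (ZIP8), an importer of zinc and manganese, fell in all 4 comparisons, by 2.11 and 2.52 on the log2 scale in heterozygous cortex and by 3.07 and 3.18 in wild-type cortex after 1 and 3 weeks (adjusted p from 0.00013 to 0.0086). Slc39a6 (ZIP6), another zinc importer, rose in all 4, by 1.96 and 2.27 in heterozygous cortex (adjusted p = 0.0081 and 0.0018). In wild-type cortex, where it was not well above background in controls, it rose at least 1.55-fold and 1.66-fold (adjusted p = 0.023 and 0.027). Cp, the copper-binding ferroxidase ceruloplasmin, rose at 3 weeks, by 2.75 in heterozygous and 2.05 in wild-type cortex (adjusted p = 0.0017 and 0.01).

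Among cytosolic HSP70, HSP90 and J proteins, 16 of 20 were tested. In heterozygous cortex 0 rose and 1 fell after 1 week, and 1 rose and 0 fell after 3 weeks. In wild-type cortex 3 rose and 2 fell after 1 week, and 3 rose and 1 fell after 3 weeks. Medians were 0.01 and 0.41 in heterozygous and -0.09 and -0.01 in wild-type cortex. Hspa1a, the stress-inducible HSP70, rose in wild-type cortex by 1.34 ± 0.32 and 1.5 ± 0.32 (adjusted p = 0.0065 and 0.0067), and its heterozygous changes of 0.51 and 0.92 did not pass. Hspa1a and Hspa1b are near-identical copies that a probe may not tell apart. Hspa2, an HSP70 best known from the testis, rose by 1.78 in heterozygous cortex after 3 weeks and by 2.21 and 1.99 in wild-type cortex after 1 and 3 weeks (adjusted p = 0.038, 0.0073 and 0.024). Dnaja4 fell at 1 week, by 1.12 in heterozygous and 1.48 in wild-type cortex (adjusted p = 0.031 and 0.0017).

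Of heat shock factors and cochaperones, 20 of 22 were tested, and 1 to 3 passed in each of the 4 comparisons, with medians of 0.05 and 0.15 in heterozygous and 0.02 and -0.13 in wild-type cortex. Bag2, a cochaperone that holds back the ubiquitin ligase of HSP70 clients, rose in all 4, by 1.11 and 1.48 in heterozygous cortex and 1.17 and 0.93 in wild-type cortex (adjusted p from 0.0035 to 0.04). Hsf2, a heat shock factor, fell at 1 week by 1.03 in heterozygous and 0.96 in wild-type cortex (adjusted p = 0.036 and 0.019). Stip1, which bridges HSP70 and HSP90, rose by 0.88 in wild-type cortex after 1 week (adjusted p = 0.017).

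Only 4 of 8 other small heat shock proteins were tested, with medians of -0.43 and -0.80 in heterozygous and -0.12 and -0.05 in wild-type cortex. Cryab, alpha-B crystallin, rose by 1.93 ± 0.58 in wild-type cortex after 3 weeks (adjusted p = 0.038), and its change of 0.86 in heterozygous cortex did not pass. Hspb2 fell by 1.35 ± 0.33 in heterozygous cortex after 3 weeks (adjusted p = 0.014). The changes of Hspb9 lay between -0.96 and -0.28 and did not pass.

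All 16 mitochondrial chaperones and proteases of the list were tested. None rose, while 1 and 4 fell in heterozygous cortex after 1 and 3 weeks and 6 and 5 in wild-type cortex. The list medians were -0.30 and -0.41 in heterozygous and -0.75 and -0.56 in wild-type cortex. Dnajc19, a J protein of the import motor, fell in all 4, by 0.98 and 1.08 in heterozygous and by 1.83 and 1.35 in wild-type cortex (adjusted p from 0.00014 to 0.033). Grpel1, the exchange factor of mitochondrial HSP70, fell by 0.97 in heterozygous cortex after 3 weeks and by 1.23 and 0.91 in wild-type cortex (adjusted p = 0.022, 0.0026 and 0.029). Clpx, the unfoldase of the ClpP protease, fell by 1.74 and 1.21 in wild-type cortex (adjusted p = 6e-04 and 0.015).

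Of the 14 TRiC and prefoldin subunits, which fold actin and tubulin, 1 rose in heterozygous cortex after 1 week, and 3 rose and 1 fell in wild-type cortex after 1 week. None passed at 3 weeks in either genotype, and the medians were 0.12 and 0.07 in heterozygous and 0.17 and -0.23 in wild-type cortex. Cct5 rose by 1.01 in heterozygous and 0.88 in wild-type cortex after 1 week (adjusted p = 0.048 and 0.037), and Cct7 and Vbp1 rose by 0.68 and 0.87 in wild-type cortex (adjusted p = 0.032 and 0.04). Of ER chaperones, 16 of 17 were tested. After 1 week 2 rose and 0 fell in heterozygous cortex, and 4 rose and 2 fell in wild-type cortex, and none passed at 3 weeks, with medians of 0.44 and 0.36 in heterozygous and 0.60 and 0.04 in wild-type cortex. Pdia6 rose by 1.66 ± 0.27 in wild-type cortex after 1 week (adjusted p = 0.00046), there Creld2, a chaperone-like protein, rose at least 1.92-fold (adjusted p = 0.0076), and Dnajb9 fell by 1.46 ± 0.28 (adjusted p = 0.0014).

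**Figure D5:**
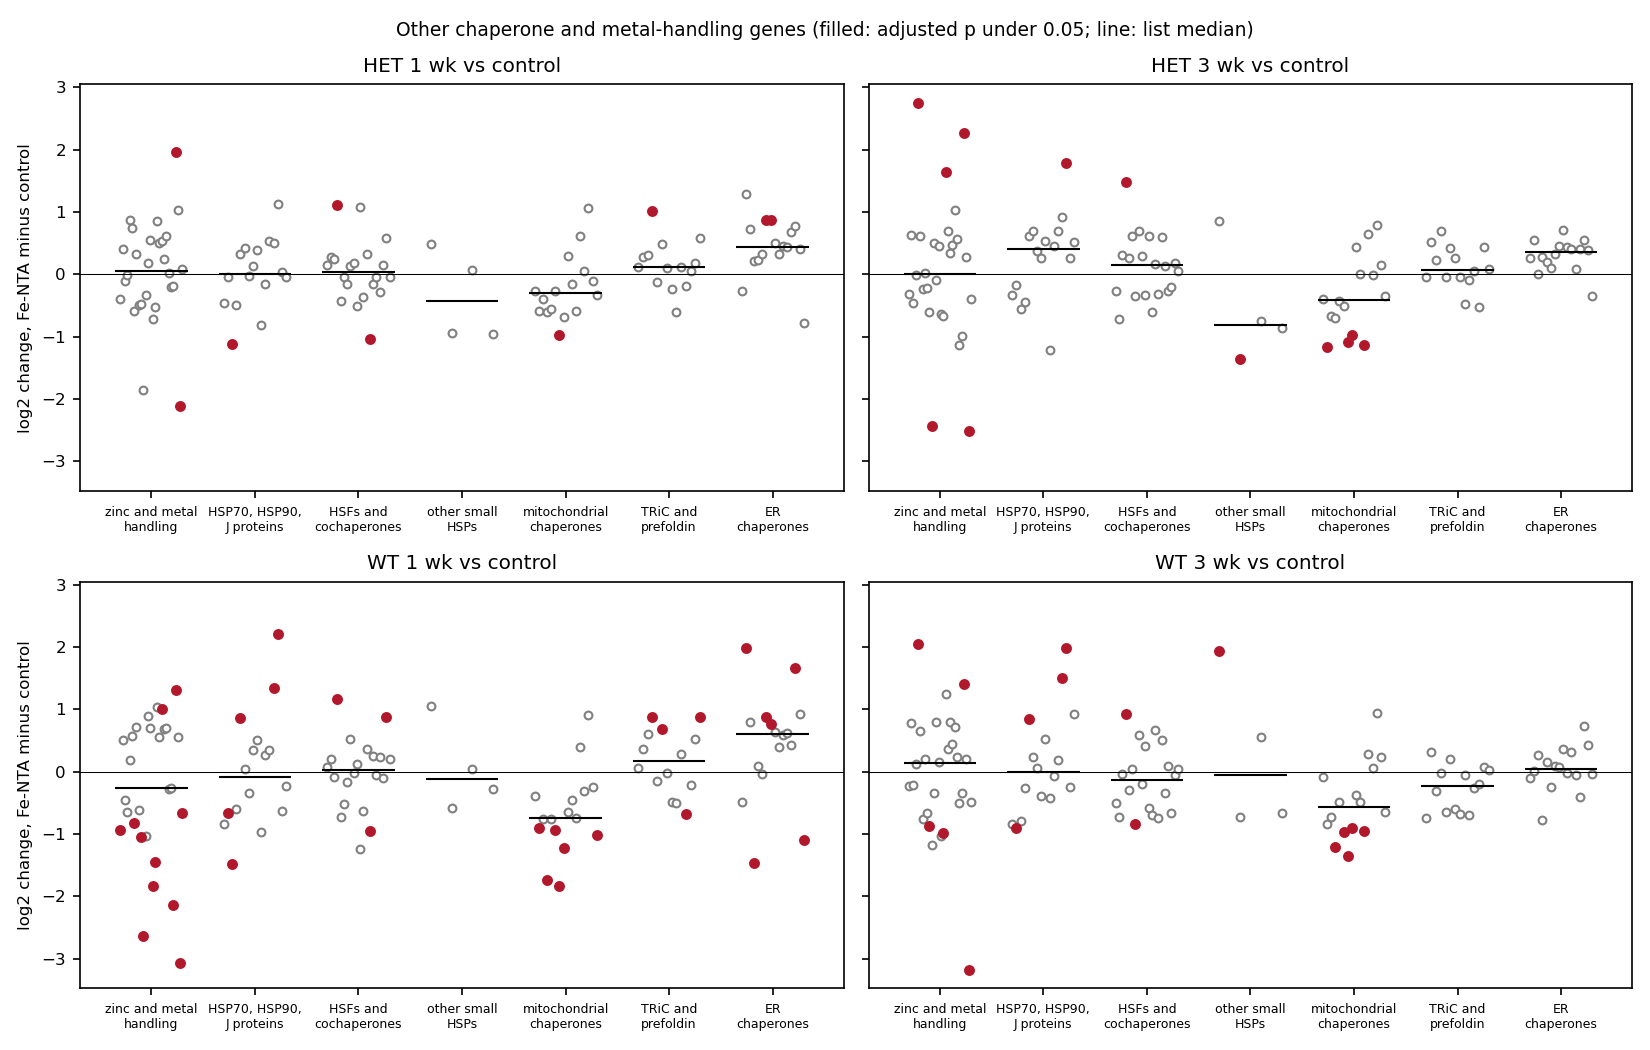
Log2 change after Fe-NTA (y axis) of each tested gene of the 7 lists (x axis) in the 4 comparisons with controls (HET, heterozygous; WT, wild type). Points are genes, filled where the adjusted p is under 0.05, and lines are list medians. No gene of the mitochondrial list is filled above 0, and Slc39a8 is the lowest point in wild-type cortex after 3 weeks, at -3.18.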

How the data were processed

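RNA from 16 kidney cortex samples was read on single-colour Agilent arrays. Per the file headers, the scanner output gives an intensity for each spot, with background subtracted and no scaling of arrays to each other. The software was Agilent Feature Extraction 10.7, per the submitters' processing notes. Values in the table the authors deposited are log2, and 99.66% of them lie within 0.05 of the scaled values computed here.

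From 62976 spots a file, 4259 control spots and outlier spots were left out, spots of a probe were averaged, and each array's 75th percentile was subtracted from its log2 processed signals. A probe was kept (20431 were) if some group had it well above background on all of its arrays, and a gene took its brightest such probe. Genes were named by RefSeq accession where matched (21229 probes), otherwise by the file. limma 3.58.1 in R 4.3.3 fitted 1 mean per group over all 16 arrays, with Benjamini-Hochberg adjustment over 16007 genes and two-sided tests called under 0.05. Intervals are 95% intervals of that fit. The number of arrays limits precision. The fit was tested on simulated data.

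The members and lists were chosen with earlier results of these data known. Named are all members, the 3 genes of each list with the smallest unadjusted p in any comparison with controls, and the 3 genes nearest to each member. Promoter sequences and start sites came from RefSeq (GRCr8), matched by symbol for all 9 members. Matplotlib 3.10.9 in Python 3.11.15 drew the figures. Replicate numbers were checked as pairs: over 36 same-numbered pairs of arrays in different groups, deviations from the group means correlated at a median of 0.03, from -0.34 to 0.44. The numbers were therefore not used as pairs. Slide and scan coincide and each of 2 slides holds all 6 groups.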

Additional observations from a re-analysis of the deposited data

How the results depend on the processing

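Over 1800 values of single members under the alternatives, 1734 kept their side of the threshold, 61 lost a call, 5 gained one and none reversed a call. Most of the 1800 were uncalled to begin with and stayed so, 143 of them with a changed sign. The share kept thus says little about the calls, on which all 61 losses fell. Of 17 alternatives, Mt1 at 3 weeks kept its call in 7 in heterozygous and 14 in wild-type cortex. Hspb1 after 1 and 3 weeks kept its call in 13 and 9 of 17 in heterozygous cortex and in 15 and 10 of 17 in wild-type cortex. In wild-type cortex Hspb8 kept its call in 13 of 17 after 1 week and 4 of 17 after 3 weeks. Mt1 between 3 weeks and 1 week in wild-type cortex kept it in 8 of 18. The 5 gains were Hspb1 between 3 weeks and 1 week in wild-type cortex with dim values raised to the limit of detection, Hspd1 in wild-type cortex after 1 week without replicate 2 of that group and after 3 weeks with only the groups compared, Hspb8 in heterozygous cortex after 1 week with only the groups compared, and Mt2A in wild-type cortex after 3 weeks without its replicate 1.

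The number of members called moved as follows. In heterozygous cortex after 1 week it was 0 with no filter on dim probes and 2 with only the groups compared. After 3 weeks it was 1 with normexp correction, with quantile normalization and with dim values raised to that limit, and 0 with no filter. In wild-type cortex it was 1 after 1 week and 1 after 3 weeks with normexp correction, and 1 after 3 weeks with no filter. The wild-type 3-week number was 2 of 3 with quantile normalization, with dim values raised to that limit and with slide as a block, each without Hspb8, and stayed 3 with only the groups compared, where Hspd1 stood in place of Hspb8. Between 3 weeks and 1 week in wild-type cortex it was 0 with normexp correction, with no filter and with only the groups compared, and with dim values raised to the limit Hspb1 stood in place of Mt1 (-1.27, adjusted p = 0.066). Within slide 1 and within slide 2 it was 0 in each of these 5 comparisons, with 2 residual degrees of freedom on each slide. Leaving out 1 array at a time gave 0 to 1 members in heterozygous cortex after 1 week and 0 to 1 after 3 weeks, 1 to 3 in wild-type cortex after 1 week, 1 to 2 after 3 weeks, and 0 to 1 between 3 weeks and 1 week in wild-type cortex. Where a group was left with 1 array, it was assumed to vary like the others. With the replicate number as a block, 1 and 2 members were called in heterozygous cortex after 1 and 3 weeks and 2 and 2 in wild-type cortex, where Hspb8 after 3 weeks was the call lost (adjusted p = 0.067). Same-numbered arrays did not deviate together, so the block is no pairing. Without the filter more dim genes enter the fit, and for the other losses the cause was not tested. Normexp correction added an offset of 50, where the 75th percentiles of processed signal ran from 20.1 to 78.5 over the arrays. The part of this offset in the smaller normexp changes was not tested. With 2 control arrays a genotype, each fold rests on the level of those 2, and Hspb8, not well above background in 1 of the 2, has no settled size.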

Other observations

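Other metal-handling genes, picked after their values were seen, moved in wild-type cortex. Those given here all fell, while Slc39a6 and, at 3 weeks, Cp of the same list rose. Among all genes, 14.3% were called lower there after 1 week and 5.52% after 3 weeks. Whether MTF-1 has a part in these changes or in that of Mt1 was not tested. Slc30a1, the zinc exporter of the plasma membrane and a known target of MTF-1, fell by 1.05 after 1 week and by 0.88 after 3 weeks (adjusted p = 0.0037 and 0.022). Mtf1 itself fell by 0.82 after 1 week (adjusted p = 0.044), and Slc31a1, the copper importer, fell by 1.45 and 0.98 (adjusted p = 0.002 and 0.036). Slc39a5, a zinc importer, fell by 2.14 after 1 week (adjusted p = 0.0011), and Atox1, a copper chaperone, by 0.93 (adjusted p = 0.012). Of these 5, none passed in heterozygous cortex, and for none of them did the difference between the genotypes in the change pass its test.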
